A study of Prunus persica with 25 samples.

Results

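Vegetative and flower buds of peach (Prunus persica, cultivar 'Fantasia') were compared before chilling and after the chilling requirement was met. Of 26873 genes counted, 302 moved in opposite directions in the 2 bud types between these collections. In 280 of them the level was lower in vegetative buds and higher in flower buds at the end, and in the other 22 it was higher in vegetative buds and lower in flower buds. They were chosen by their measured values: a change of at least 1.5-fold between the group means in each bud type, in opposite directions, and a mean of at least 5 CPM (the count per 1000000 counts of its library) in one of the 4 groups, a level reached by 17775 genes. For comparison, 2709 genes were at least 1.5-fold lower and 2367 at least 1.5-fold higher in both bud types. The opposite changes themselves are therefore a description of the libraries that chose the genes, and tests were made only in vegetative libraries that the choice did not use.

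A peach shoot carries its axillary buds in triplets, a central vegetative bud that will form a shoot and lateral buds that each form a flower. Both are set in summer and pass the winter closed, and both need a period of cold, counted in chilling units (CU), before they open in spring. Flower buds go on forming floral organs during winter, while the meristem of a vegetative bud produces leaf primordia. The paper reports from sections that vegetative buds also kept developing in winter. They gained ring-shaped meristematic regions and longer leaflets, most clearly in the later part of chilling accumulation. How that growth relates to the transcript levels given below was not tested. Dividing cells make a known set of transcripts, those of histones, replication proteins, mitotic cyclins, spindle proteins and kinesin motors, so such genes give a reading of how much division a tissue holds.

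All samples were buds of 'Fantasia' trees grown outdoors, without treatment, and cleaned of their outer scales. The groups that chose the genes were vegetative buds at Pre0CU (n = 3) and at the last collection (n = 3), and flower buds at the same collections (n = 2 each), all from year B. Pre0CU was taken before any effective chilling, and the last collection, labelled Post770CU in the sample records and 930 in the column names, came after the chilling requirement of the cultivar was met and is called 930CU here. Vegetative buds were also collected at 200CU and 475CU in year B and at 0CU, 475CU and 770CU in year A, with 3 libraries each, and flower buds of these collections were not analysed here. Buds of several trees formed the replicates, but whether each replicate came from trees of its own is not stated, so p-values measure the spread between these samples, which may be technical.

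Library totals were 39615840 to 71239880 counts, so that 3 counts, the floor used here, correspond to at most 0.0757 CPM. The flower markers LFY, AGL79 and SEP1 summed to 99.8 to 155 CPM in the 4 flower libraries and to 7.49 to 50.7 CPM in the 21 vegetative libraries. The highest vegetative values belonged to 2 of the 3 libraries of 475CU in year B, in which LFY stood at 32.4 and 30.7 CPM against 4.01 CPM in the third, and the next to the third library of 200CU. The vegetative markers KNAT1, PRS, KANADI1 and CLAVATA3/ESR overlapped between the bud types when all collections were pooled. Their sum was 55.7 to 173 CPM in flower libraries and 61.1 to 316 CPM in vegetative ones. Within each shared collection the sum did separate the bud types. At Pre0CU it was 204 to 219 CPM in vegetative and 152 to 173 CPM in flower buds. At 930CU it was 98.7 to 111 CPM in vegetative and 55.7 to 56.9 CPM in flower buds. KNAT1 made up most of the sum at both collections. KANADI1 alone overlapped between the bud types at both, and PRS at 930CU. In bulk tissue, fewer cells of a type and less RNA per cell cannot be told apart. Between 96.0% and 96.4% of the counts above 0 were even numbers in year A, with 4076 to 4756 genes at 0 per library, against 49.3% to 50.8% and 11 to 38 genes in year B, so levels were not compared between the seasons. The molecule is recorded as total RNA for all vegetative libraries but those of 930CU, and as polyA RNA for these and all flower libraries, so in vegetative buds this label and the last collection cannot be told apart.

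At Pre0CU most of these genes were within 1.5-fold between the bud types: 86.4% of the 280 and 72.7% of the 22, beside 92.4% of all 17775. Opposite changes of at least 1.5-fold each move such genes at least 1.5-fold apart. Their parting at 930CU was therefore fixed by the choice, and only its size is described. Among the 280 genes that were lower in vegetative and higher in flower buds, 242 differed by less than 1.5-fold between the bud types at Pre0CU and the median flower level was 1.10 times the vegetative level. At 930CU none of them was within 1.5-fold, all 280 were higher in flower buds, and the median ratio was 5.48. The median gene of this set was 1.96-fold lower at 930CU than at Pre0CU in vegetative buds (range 1.5 to 8.00) and 2.25-fold higher in flower buds (range 1.5 to 81.7). In 82 of them the change was at least 2-fold in both bud types. The 22 genes of the other direction changed less: the median was 1.59-fold higher in vegetative buds (range 1.5 to 2.14) and 1.80-fold lower in flower buds (range 1.56 to 2.77), and none reached 2-fold in both. For 21 of these 22 the flower mean was the higher at Pre0CU, and for 20 the order of the bud types changed by 930CU. Over all 17775 genes, 92.4% at Pre0CU and 71.1% at 930CU were within 1.5-fold between the bud types, and their median log2 change from Pre0CU to 930CU was 0.08 in vegetative and 0.22 in flower buds.

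**Figure D1:**
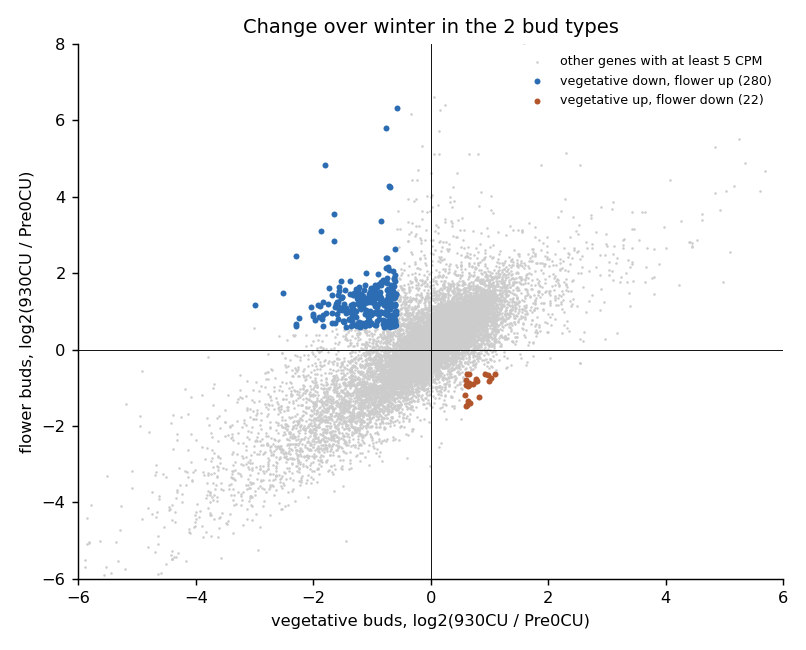
Log2 ratio of mean CPM at 930CU over Pre0CU in vegetative buds (x axis) and flower buds (y axis), 1 point per gene with at least 5 CPM in one of the 4 means, with 0.01 CPM added to each mean; 26 genes lie outside the axes. Most genes lie along the diagonal, and the 280 coloured points at the upper left and the 22 at the lower right are the genes chosen for opposite changes.

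The libraries of the 2 collections did not overlap in 277 of the 280 genes in vegetative buds and in 278 in flower buds. Libraries also stood apart, lower at 930CU, in 37.7% of all 17775 genes in vegetative buds and, higher at 930CU, in 55.7% in flower buds, so nothing can be read from these counts, which the choice of genes largely fixes. For the 22 genes the counts were 18 in vegetative and 22 in flower buds, beside 46.7% of all genes higher in vegetative buds and 34.3% lower in flower buds. Leaving out each of the 10 libraries in turn kept 210 of the 280 genes and 7 of the 22 under the rule in every case. In the smaller set the first 930CU library of vegetative buds often lay below the other 2, as several genes given further on show. The genes nearest the threshold among the 280 were PRUPE_8G236900, PRUPE_1G375900 and PRUPE_6G341100, whose smaller change was 1.5-fold, while PRUPE_5G156300, PRUPE_8G110900 and PRUPE_8G156100, just under 1.5-fold, stayed outside. At the same edge of the other direction PRUPE_7G176200, PRUPE_6G141100 and PRUPE_1G023600 were inside at up to 1.51-fold, and PRUPE_4G160700, PRUPE_7G060800 and PRUPE_1G384100 were outside at 1.49-fold.

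Names could be given to 60 of the 302 genes. Annotations were taken from the readable part of the study's gene table, which covers 1627 genes of chromosomes 1 to 3 that the study had already grouped for their fall with chilling in vegetative buds, in these same libraries. It held 55 of the 280 genes and 3 of the 22. Being drawn from falling genes, it cannot show which functions are common among the 302, and the fall of its genes in vegetative buds is not independent evidence. The other 242 genes are given by their identifiers.

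Genes of cell division were described first. By the search words of the cell cycle and histone list, 6 of the 15 genes with at least 5 CPM were lower in vegetative and higher in flower buds, beside 55 of 1544 genes (3.56%) of the annotated table they come from and 280 of 17775 (1.58%) of all genes. A wider list, read from the annotations after the values had been seen, added spindle, replication, checkpoint and chromatin-architecture words and held 19 such genes among 37. All 19 are named below. Of the remaining 18, 10 also had a lower vegetative and a higher flower mean at 930CU without reaching 1.5-fold in both, and 6 were lower in both, among them a cyclin D1;1, a regulator of entry into the cell cycle, and a histone H2A.

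PRUPE_2G232000, a histone H4 that packs new DNA, stood at 32.0, 30.1 and 33.3 CPM in vegetative buds at Pre0CU and at 9.76, 11.2 and 12.0 CPM at 930CU. In flower buds its level was 27.1 and 29.6 CPM at Pre0CU and 73.6 and 71.5 CPM at 930CU. The bud types thus began side by side, and at the end the flower mean was 6.60 times the vegetative mean, with no overlap. The fitted log2 change was −1.55 ± 0.07 (SE) in vegetative and 1.21 ± 0.08 in flower buds. The same libraries chose the gene, so neither these errors nor the lack of overlap is a test. A second histone H4, PRUPE_2G232200, went from 28.6, 29.5 and 31.0 CPM to 8.50, 11.2 and 11.7 CPM in vegetative buds and from 25.7 and 28.5 CPM to 71.7 and 67.9 CPM in flower buds. Histone H4 genes are near-identical copies, so reads may have been shared between them. PRUPE_2G185400, which encodes CENH3, the histone that marks centromeres, changed less, with 14.0, 14.7 and 14.0 CPM against 8.01, 8.67 and 7.59 CPM in vegetative buds and 15.7 and 15.8 CPM against 27.6 and 26.6 CPM in flower buds.

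The replication and DNA-binding genes given next were all chosen by the rule, which fixes their directions, so only sizes are described. PRUPE_1G211500 encodes MCM2, a subunit of the helicase that opens DNA for replication, and it stood at 48.4, 48.9 and 44.4 CPM in vegetative buds at Pre0CU and at 21.0, 23.0 and 25.0 CPM at 930CU. Flower buds held 45.2 and 42.8 CPM, then 91.1 and 87.7 CPM. It was therefore 2.05-fold lower in one bud type and 2.03-fold higher in the other, with fitted log2 changes of −1.06 ± 0.06 and 0.88 ± 0.07. The single-strand DNA binding subunit RPA2 (PRUPE_1G461400) was 1.59-fold lower in vegetative and 2.90-fold higher in flower buds. JHS1/DNA2 (PRUPE_2G112200), a replication helicase, was 1.71-fold lower and 2.21-fold higher. Of the DNA-bending proteins, HMGA (PRUPE_1G330600) was 1.76-fold lower and 3.56-fold higher, and HMGB6 (PRUPE_1G350700) 2.98-fold lower and 2.35-fold higher.

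**Figure D2:**
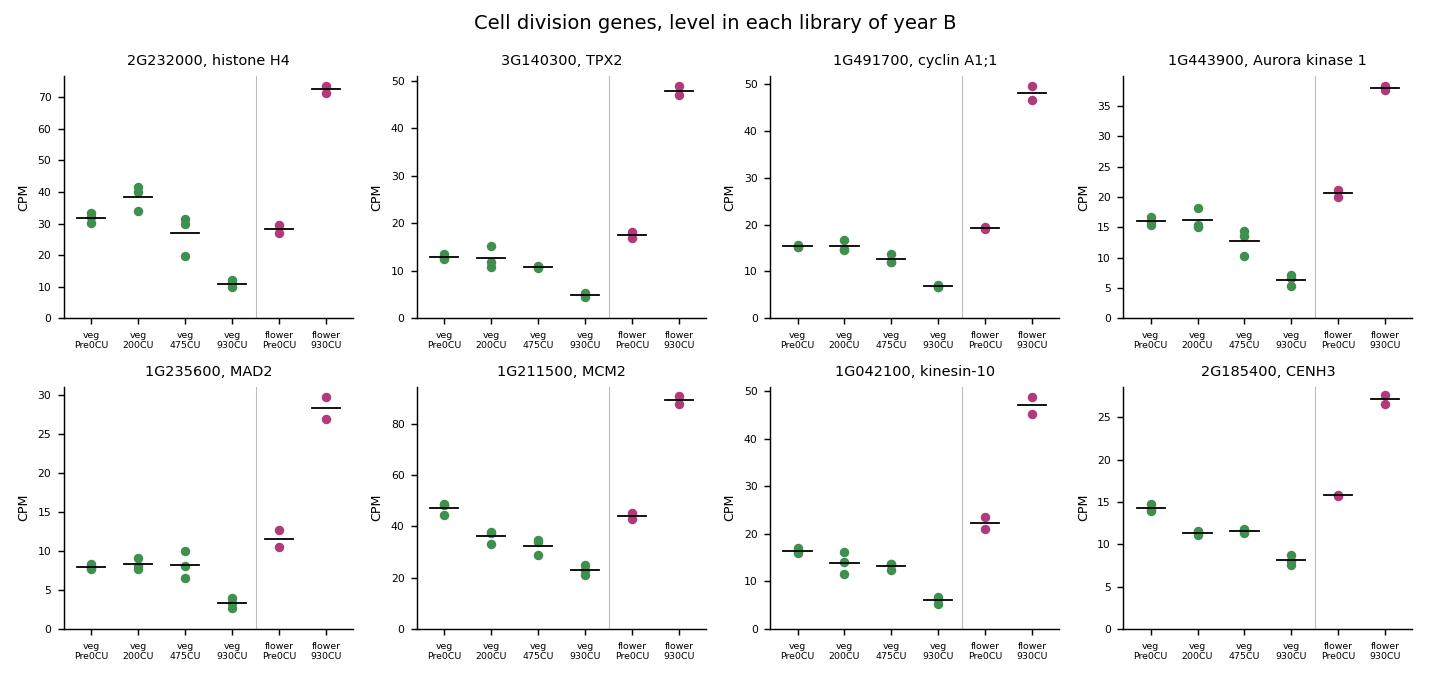
Level of 8 cell division genes (y axis, CPM from 0) in each library of year B; points are libraries, bars are group means, and the grey line parts vegetative from flower buds. In each panel the 3 vegetative libraries at 930CU are the lowest group and the 2 flower libraries at 930CU the highest, and for histone H4 they stand at 9.76 to 12.0 and 71.5 to 73.6 CPM.

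The genes of mitosis given here were likewise chosen by the rule, so their shared directions say nothing about other genes of mitosis. TPX2 (PRUPE_3G140300), which nucleates spindle microtubules, stood at 13.4, 12.7 and 12.5 CPM in vegetative buds at Pre0CU and at 4.98, 5.32 and 4.52 CPM at 930CU. In flower buds it went from 17.0 and 18.0 CPM to 48.8 and 46.9 CPM. Flower libraries were the higher at both collections, by 1.36-fold at Pre0CU and 9.69-fold at 930CU. Aurora kinase 1 (PRUPE_1G443900), which controls chromosome attachment, was 2.51-fold lower in vegetative and 1.84-fold higher in flower buds. The spindle checkpoint protein MAD2 (PRUPE_1G235600) was 2.37-fold lower and 2.44-fold higher, and the A-type cyclins CYCA1;1 (PRUPE_1G491700) and CYCA2;1 (PRUPE_1G467200), partners of the kinases that drive the cycle, were 2.24-fold and 1.93-fold lower and 2.51-fold and 1.98-fold higher. JASON (PRUPE_3G178400), annotated as a regulator of sister chromatid separation, was 2.15-fold lower and 2.05-fold higher.

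Motor proteins and the machinery that builds the new cell wall completed the group. Kinesin-10 (PRUPE_1G042100) stood at 17.1, 16.1 and 16.0 CPM in vegetative buds at Pre0CU and at 5.17, 6.26 and 6.72 CPM at 930CU, and in flower buds at 20.9 and 23.5 CPM and then at 48.8 and 45.3 CPM. Its vegetative libraries at 930CU did not overlap with any other group. Kinesin-4 (PRUPE_1G532000), kinesin-7 (PRUPE_1G419600) and kinesin-14 (PRUPE_1G535100) were 1.59-fold, 1.82-fold and 1.76-fold lower in vegetative buds and 2.53-fold, 2.65-fold and 1.58-fold higher in flower buds. MAP65-3 (PRUPE_2G282400), which bundles microtubules where daughter cells are divided, was 1.67-fold lower and 2.51-fold higher. Across the 19 genes the flower level was 0.890 to 1.46 times the vegetative level at Pre0CU and 2.92 to 9.69 times at 930CU.

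Vegetative buds of year A, another winter with its own libraries, gave the test that the choice of genes had not used. Its span, from 0CU to 770CU, began later in the season and ended at less chilling than the span of the choice. Of the 280 genes 271 could be tested, and 195 of them fell between 0CU and 770CU while 4 rose (edgeR quasi-likelihood test, adjusted p under 0.05 and more than 1.4-fold). Over all 20950 genes tested, 20.9% fell and 15.5% rose. The median log2 change of the 271 genes was −1.05, against 0.02 over all genes tested. The remaining 72 did not pass. The flower markers LFY, AGL79 and SEP1 moved too, summing to 11.8, 12.5 and 23.4 CPM at 0CU, 14.6 to 30.0 CPM at 475CU and 7.49 to 8.54 CPM at 770CU, and their part in the falls was not tested. Without the third library of 0CU, which held the 23.4 CPM, 178 genes fell and 4 rose. Counted without the genes that depended on 1 library for their choice, 160 of 209 fell and 3 rose. Of the genes that were lower in both bud types in year B, 1850 of 2659 tested fell in year A, or 69.6%, beside 72.0% of the 271, and these shares were not tested against each other.

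All 19 division genes were among those that fell in year A, by 1.63-fold to 3.92-fold, with adjusted p between 4.7e-06 and 0.0047 in edgeR's quasi-likelihood test. The list was drawn from genes grouped for falling in these libraries, and 35 of all 38 genes it holds fell in year A, beside 1232 of 1620 genes (76.0%) of the whole annotated table. Histone H4 (PRUPE_2G232000) stood at 9.33, 9.09 and 11.1 CPM at 0CU, at 10.2, 10.2 and 8.80 CPM at 475CU and at 3.00, 3.42 and 3.22 CPM at 770CU. Its libraries of 0CU and 475CU overlapped, and those of 770CU lay apart from both. TPX2 (PRUPE_3G140300) went from 9.57, 10.4 and 12.3 CPM at 0CU to 4.71, 4.01 and 4.56 CPM at 770CU, a log2 change of −1.20 ± 0.12 (SE).

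**Figure D3:**
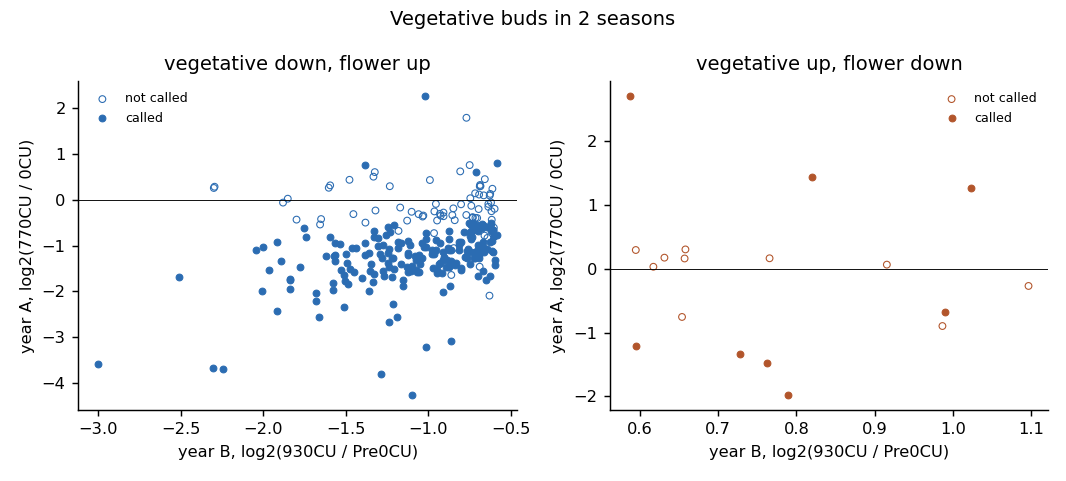
Log2 change of vegetative buds in year B (x axis, 930CU over Pre0CU, the values that chose the genes) and in year A (y axis, 770CU over 0CU, edgeR), 1 point per gene tested in year A; filled points passed the test. Most of the 271 points at the left lie below 0, where 195 genes fell, and the 18 at the right spread to both sides, where 3 rose and 5 fell.

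The course of year B can be described but not tested from Pre0CU, since both of its ends entered the rule. The median gene of the 280 had reached 10.8% of its final log2 change at 200CU and 24.7% at 475CU, and the lowest vegetative mean was that of 930CU in 260 of them. At 475CU 53 of the 280 were at least 1.5-fold below Pre0CU, or 18.9%, beside 14.2% of the 17775 genes with at least 5 CPM. At 930CU all were lower by the rule. Between 200CU and 475CU, which the rule did not use, 20 of 279 genes fell and 9 rose in edgeR's test of these 6 libraries, while 3.61% of all 26563 genes tested fell and 2.55% rose. No division gene of the 19 passed that test, and their log2 changes ran from −0.58 to 0.04. This result depends on libraries with raised flower markers, the 2 of 475CU and the third library of 200CU, in which LFY stood at 14.95 CPM against 3.704 and 7.34 CPM. With the 2 of 475CU left out, alone or together with the third of 200CU, a lone library of 475CU remained. Its spread cannot be measured, so calls from these fits are not given. With all 3 left out, an alternative chosen after seeing the data, the division genes' log2 changes ran from −1.17 to −0.03. Leaving out 1 library at a time gave 2 to 18 rises, 18 without the third library of 475CU and 2 without either of the others or without the second library of 200CU.

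In year A, where no library entered the rule, the median log2 change of the 271 genes was −0.23 over the step ending at 475CU and −0.74 over the one ending at 770CU, with 200 and 246 of them below 0. Genes that were lower in both bud types had medians of −0.63 and −0.40 over the same steps. These steps share the 475CU libraries, and the difference in timing was not tested. The summed level of the 4 histone genes in the annotated table, 3 of which are among the 280 and make up most of it, is given as a description for year B: it was 81.2 to 84.5 CPM at Pre0CU, 82.9 to 97.7 CPM at 200CU, 53.0 to 76.9 CPM at 475CU and 28.7 to 34.2 CPM at 930CU in vegetative buds of year B. Within year A, where all libraries carry the total RNA label, it was 21.5 to 25.8 CPM at 0CU, 18.2 to 21.9 CPM at 475CU and 7.86 to 8.66 CPM at 770CU. In flower buds it was 76.2 to 82.2 CPM at Pre0CU and 169 to 176 CPM at 930CU.

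**Figure D4:**
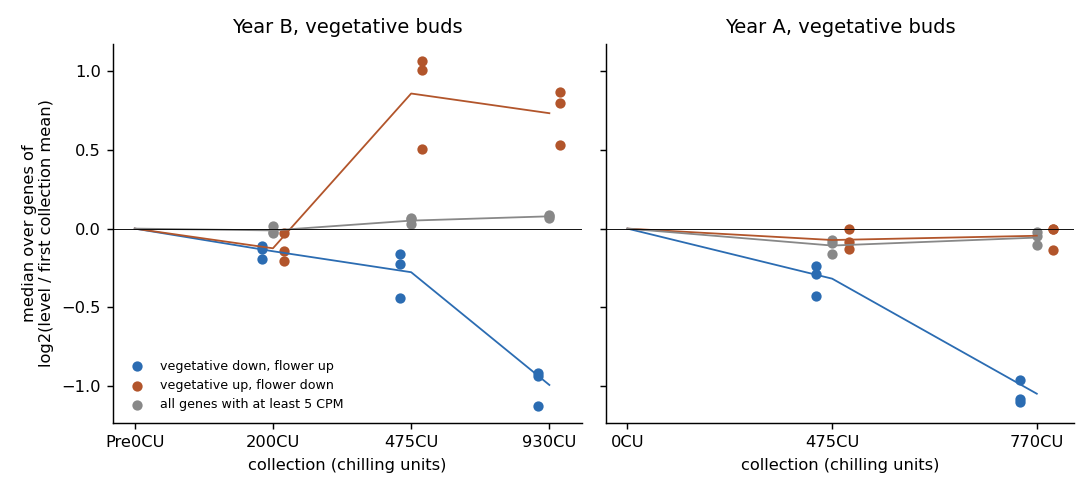
Median over genes of the log2 ratio to the mean of the first collection (y axis, 0.1 CPM added), for each library of vegetative buds by collection (x axis, spaced evenly) in year B (left) and year A (right); lines join the means of the libraries. The set lower in vegetative buds (blue) ends at −0.92 to −1.12 in year B and −0.96 to −1.10 in year A. The set higher in vegetative buds (brown) reaches 0.53 to 0.87 at 930CU in year B and lies at −0.14 to 0.00 at 770CU in year A. The brown medians of year A include 4 genes too low to be tested there, and of those tested 3 rose and 5 fell.

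The genes with the widest opposite changes carried no annotation here. The annotated table covers only some genes of chromosomes 1 to 3, so whether these genes act in cell division cannot be told. PRUPE_7G122400 led by the smaller of its 2 changes, with 6.19, 7.55 and 6.93 CPM in vegetative buds at Pre0CU against 0.714, 1.66 and 1.84 CPM at 930CU, and 5.96 and 8.78 CPM in flower buds against 42.1 and 38.1 CPM. PRUPE_5G008200 stood at 11.7, 11.6 and 9.68 CPM and then 2.51, 3.91 and 3.05 CPM in vegetative buds, and at 6.72 and 6.68 CPM and then 199 and 179.6 CPM in flower buds. For both genes the flower libraries at 930CU lay far above all others. PRUPE_3G170600 and PRUPE_6G129100 were 8.66-fold and 11.7-fold higher in flower buds and 3.68-fold and 3.15-fold lower in vegetative buds. At 475CU of year B PRUPE_6G129100 stood at 19.6 and 17.7 CPM in the 2 libraries with raised LFY and at 7.71 CPM in the third, and PRUPE_3G170600 at 8.498, 7.483 and 1.399 CPM in the same order. For these genes vegetative levels moved with the flower markers, and how much of them came from flower tissue was not tested.

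None of these 4 genes passed edgeR's test in year A, with adjusted p of 0.074 to 0.91, which does not show that they stayed level. The log2 change was 0.29 ± 0.34 (SE) for PRUPE_7G122400 and −0.43 ± 0.46 for PRUPE_5G008200. It was −0.06 ± 0.37 for PRUPE_3G170600 and −0.54 ± 0.23 for PRUPE_6G129100. The other 6 of the 10 leading genes, PRUPE_1G139900, PRUPE_3G197500, PRUPE_3G232500, PRUPE_8G054200, PRUPE_6G201700 and PRUPE_6G050900, did fall in year A, by log2 changes of −0.81 to −2.57. In year B these 6 were 2.90-fold to 5.71-fold lower in vegetative buds and 2.77-fold to 7.18-fold higher in flower buds.

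A second named group lay close together on chromosome 1. PRUPE_1G476200, PRUPE_1G477200 and PRUPE_1G477400 encode BURP domain proteins of the RD22 type, secreted proteins known in Arabidopsis from drought and abscisic acid responses. PRUPE_1G476200 stood at 64.0, 69.5 and 66.2 CPM in vegetative buds at Pre0CU, at 76.4, 100.04 and 190.4 CPM at 200CU, at 20.5, 18.7 and 21.3 CPM at 475CU and at 11.9, 14.3 and 14.4 CPM at 930CU. Flower buds already held more at Pre0CU, with 217 and 305 CPM, and reached 422 and 407 CPM. Unlike the division genes, the bud types were apart from the start, and the vegetative level dropped between 200CU and 475CU. PRUPE_1G476200 did not stay under the rule in every case when 1 library was left out, while the other 2 genes did. The other 2 genes were 3.04-fold and 2.352-fold lower in vegetative buds and 1.89-fold and 2.28-fold higher in flower buds.

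Between 200CU and 475CU all 3 BURP genes fell, by log2 2.65 ± 0.30 (SE) for PRUPE_1G476200, 2.54 ± 0.27 for PRUPE_1G477200 and 2.18 ± 0.23 for PRUPE_1G477400, with adjusted p of 0.0011 to 0.0013 in edgeR's test. The other 6 annotated BURP genes also fell over this step, beside 14.2% of the annotated table. In year A the log2 changes of the 3 genes from 0CU to 770CU were 0.26 to 0.30 and did not pass edgeR's test (adjusted p 0.28 to 0.67). Of all 9 BURP genes 3 fell in year A, beside 76.0% of the annotated table. The unannotated neighbours PRUPE_1G476300 and PRUPE_1G476400 moved likewise in year B, but their counts differed from each other by a median of 0.56% and both were at or near 0 in year A, so they may not be separate measurements.

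**Figure D5:**
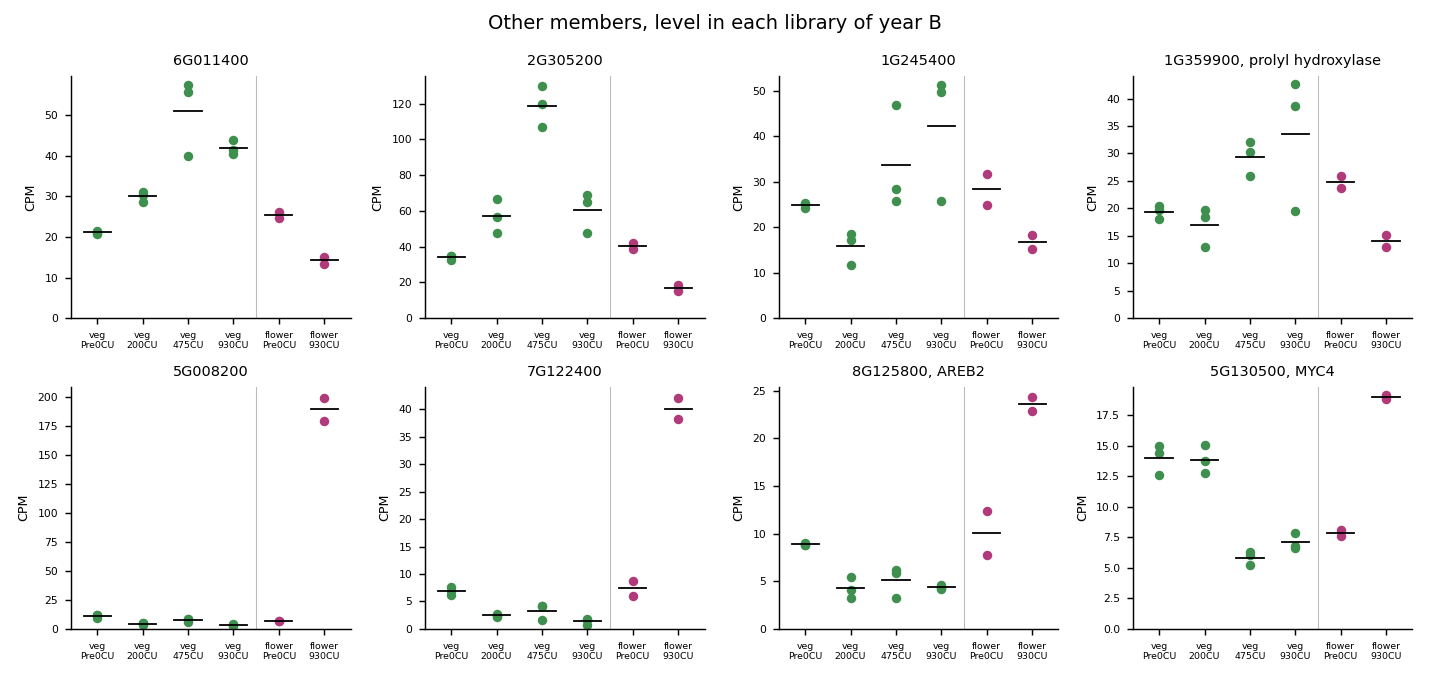
Level of 8 further genes (y axis, CPM from 0) in each library of year B; points are libraries, bars are group means, and the grey line parts vegetative from flower buds. The top row shows 4 genes higher in vegetative buds at 930CU, with 1 library apart for PRUPE_1G245400 (25.7 against 51.3 and 49.6 CPM), and the bottom row 4 genes higher in flower buds at 930CU.

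Among the hormone genes that the study discussed for these samples, and which are therefore not independent evidence, 2 moved oppositely. AREB2 (PRUPE_8G125800), a bZIP transcription factor of abscisic acid responses, stood at 8.98, 8.78 and 8.82 CPM in vegetative buds at Pre0CU and at 4.61, 4.31 and 4.20 CPM at 930CU, and in flower buds at 7.73 and 12.3 CPM and then 22.9 and 24.4 CPM. In year A it went the other way, from 2.39, 2.12 and 2.74 CPM at 0CU through 6.22, 7.32 and 5.205 CPM at 475CU to 11.7, 10.6 and 11.0 CPM at 770CU. That rise passed edgeR's test with a log2 change of 2.27 ± 0.15 (SE, adjusted p = 1.5e-06), and the 3 collections did not overlap. Within year B the vegetative libraries had already reached 3.23 to 5.44 CPM at 200CU. Year A had no Pre0CU collection, so the 2 seasons do not span the same stages. Of all 24 listed abscisic acid genes, 8 rose and 8 fell in year A, and 1 rose and 2 fell between 200CU and 475CU. Over all genes tested, 15.5% rose and 20.9% fell in year A, and 2.55% rose and 3.61% fell between 200CU and 475CU.

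MYC4 (PRUPE_5G130500), a bHLH transcription factor of jasmonate responses, fell in both tested comparisons. Vegetative buds of year B held 14.4, 15.0 and 12.6 CPM at Pre0CU, 13.8, 12.8 and 15.0 CPM at 200CU, 6.02, 6.26 and 5.24 CPM at 475CU and 6.64, 7.88 and 6.78 CPM at 930CU. The drop thus lay between 200CU and 475CU, where the log2 change was −1.30 ± 0.11 (SE, adjusted p = 0.00038 in edgeR's test), and in year A it was −1.19 ± 0.19 (adjusted p = 0.00045). In flower buds the level was 8.10 and 7.60 CPM at Pre0CU and 18.8 and 19.1 CPM at 930CU. Of the 28 listed jasmonate genes, 20 fell and 3 rose in year A, and 4 fell and 1 rose between 200CU and 475CU. Among all genes tested 20.9% fell and 15.5% rose in year A, and 3.61% fell and 2.55% rose between 200CU and 475CU. The study took its hormone genes from those it had called as changing in these buds. These counts are therefore no result about the pathway. None of the 14 listed gibberellin genes or 23 meristem genes moved oppositely by the rule. Of all genes with at least 5 CPM only 1.70% did, so lists this short can hold none, and nothing is read from it.

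Leucine-rich repeat proteins, many of them receptor kinases that sense signals at the cell surface, were represented by 3 genes. They came from a list by search words that also took in other kinds of protein, of which 3 of 145 genes with at least 5 CPM (2.07%) moved oppositely, a smaller share than that of the annotated table. PRUPE_2G257600, annotated as inflorescence meristem receptor-like kinase 2, stood at 12.0, 11.7 and 12.3 CPM at Pre0CU and 3.66, 3.87 and 4.66 CPM at 930CU in vegetative buds, and at 14.8 and 16.9 CPM and then 30.9 and 33.7 CPM in flower buds. It also fell in year A, with a log2 change of −1.34 ± 0.14 (SE, adjusted p = 2.7e-05 in edgeR's test). PRUPE_1G264100, a leucine-rich repeat protein, fell in year A by log2 1.16 ± 0.24, and the kinase PRUPE_1G314900, 3.45-fold higher in flower buds, did not pass there (log2 −0.25 ± 0.13, adjusted p = 0.13). Of that list 77.8% fell in year A, close to the 76.0% of the annotated table.

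The largest falls of year A among the 280 genes belonged to PRUPE_3G172000, a xyloglucan endotransglucosylase that remodels cell wall polysaccharide, and to a C2H2 zinc finger transcription factor, PRUPE_1G503600, besides 3 unannotated genes. The zinc finger gene stood at 13.7, 15.9 and 14.6 CPM at 0CU, at 2.87, 4.08 and 2.66 CPM at 475CU and at 0.895, 0.907 and 1.43 CPM at 770CU, a log2 change of −3.70 ± 0.23 (SE, adjusted p = 1.1e-06 in edgeR's test). In year B it went from 13.5, 13.7 and 12.5 CPM to 2.14, 3.08 and 3.14 CPM in vegetative buds and from 12.7 and 11.4 CPM to 24.5 and 18.0 CPM in flower buds. The endotransglucosylase gene fell by log2 4.27 ± 0.44 in year A (adjusted p = 2.7e-05), but its flower libraries overlapped, with 18.5 and 8.42 CPM at Pre0CU and 11.2 and 33.2 CPM at 930CU, so its higher flower mean rests on 1 library. The flower libraries of PRUPE_6G139300 overlapped as well. PRUPE_6G298300, PRUPE_6G139300 and PRUPE_6G139800 had log2 changes of −3.82, −3.69 and −3.59.

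The 22 genes that were higher in vegetative and lower in flower buds held 3 annotated ones. PRUPE_6G011400, unannotated, had the largest change of the set by its smaller side, with 20.8, 21.5 and 21.1 CPM in vegetative buds at Pre0CU and 40.4, 41.5 and 44.0 CPM at 930CU, and with 26.2 and 24.6 CPM and then 15.2 and 13.3 CPM in flower buds. PRUPE_2G305200 stood at 32.84, 35.04 and 34.98 CPM and then at 47.9, 65.1 and 68.7 CPM in vegetative buds, and at 38.5 and 42.0 CPM and then at 15.2 and 18.5 CPM in flower buds. The prolyl hydroxylase gene PRUPE_1G359900, of a family that modifies proline in proteins, stood at 19.7, 18.1 and 20.4 CPM and then at 19.5, 38.6 and 42.6 CPM in vegetative buds. Its first library at 930CU was at the Pre0CU level, so its higher mean rests on the other 2. The same library was low for PRUPE_1G245400, an NADPH-dependent reductase (25.7 against 51.3 and 49.6 CPM, from 25.2, 25.3 and 24.1 CPM at Pre0CU), and for PRUPE_6G141100 (23.3 against 62.1 and 60.4 CPM). The calcium sensor CML11 (PRUPE_1G023600) was 1.51-fold higher in vegetative and 1.74-fold lower in flower buds.

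The smaller set was tested over the same steps. Between 200CU and 475CU 13 of the 22 rose and 1 fell in edgeR's test, beside 2.55% and 3.61% of all genes tested, and the median log2 change was 0.73. In 11 of the 22 the highest vegetative mean of year B was at 475CU, and in 10 at 930CU. PRUPE_2G305200 rose by log2 1.01 ± 0.12 (SE, adjusted p = 0.0016), from 47.8, 66.8 and 56.7 CPM at 200CU to 129.9, 120.04 and 107 CPM at 475CU, after which it was lower again at 930CU. Without the 2 libraries of 475CU with raised LFY the median log2 change was 0.57. Without these and the third library of 200CU it was 0.58. Calls are not given for these fits, which keep a lone library of 475CU. Without 1 library of the 6 at a time, 8 to 13 rose, the fewest without the second library of 200CU. The 5 largest rises among those called were those of PRUPE_4G270200, PRUPE_3G101200, PRUPE_3G101300, PRUPE_3G101100 and PRUPE_1G245400, with log2 changes of 2.98, 2.45, 2.42, 2.28 and 1.05. The 3 neighbours on chromosome 3 had nearly the same counts, PRUPE_3G101200 and PRUPE_3G101300 differing by a median of 0.14%, so they may be 1 measurement.

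In year A this set showed no common direction. Of 18 genes tested 3 rose and 5 fell, beside 15.5% and 20.9% of all genes tested, and the median log2 change was 0.05. The rises were those of PRUPE_7G176200 (log2 2.71 ± 0.28 SE), PRUPE_2G305200 (1.44 ± 0.26) and PRUPE_4G122300 (1.26 ± 0.19), with adjusted p of 2.7e-05 to 0.00089 in edgeR's test. PRUPE_2G305200 stood at 36.9, 87.9 and 92.9 CPM at 0CU and at 188, 175 and 190.3 CPM at 770CU, and it and PRUPE_4G122300 were the 2 that rose in both tested comparisons. PRUPE_1G359900 and PRUPE_1G245400 fell by log2 1.98 ± 0.21 and 1.48 ± 0.18, against their higher mean in year B, and PRUPE_I001000, PRUPE_1G023600 and PRUPE_6G011400 also fell. The other 4 genes were too low in year A to be tested, and PRUPE_3G101200 was at 0 in all 9 libraries. The remaining leading genes of the set, PRUPE_1G128200, PRUPE_5G052400, PRUPE_4G097700 and PRUPE_3G179800, had log2 changes of −0.90 to 0.30 in year A that did not pass both thresholds. PRUPE_5G052400 was at or below 0.944 CPM in vegetative buds of both collections that chose it, and 7.37 and 8.38 CPM in flower buds at Pre0CU.

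By their identifiers, in which the digit before the G gives the chromosome, genes lower in vegetative and higher in flower buds lay on all 8 chromosomes, at 0.515% of the genes with at least 5 CPM on chromosome 2 and 1.56% to 1.93% on each of the others. Of the 302 genes, 24 stood next to another one of the same direction in the order of identifiers, in 10 runs of at most 3. MYC4 was followed by PRUPE_5G130600, and PRUPE_5G140800 and PRUPE_5G140900 come directly after LFY (PRUPE_5G140700), the floral meristem regulator, which was not one of the 302. PRUPE_5G140900 stood at 22.1, 22.5 and 22.5 CPM and then 10.9, 12.1 and 11.0 CPM in vegetative buds and at 28.7 and 30.4 CPM and then 81.8 and 73.0 CPM in flower buds, and fell in year A by log2 1.49 ± 0.19 (SE, adjusted p = 9.6e-05 in edgeR's test). Whether strand was used in counting is not stated, so reads of overlapping neighbours cannot be told apart.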

How the data were processed

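Libraries were made with a stranded mRNA kit, per the labels. The authors trimmed reads with fastp, mapped them with STAR to the peach genome (NCBI version 2), discarded duplicates and counted reads on exons with bedtools multicov 2.30.1; they deposited raw counts per gene, with no normalization. Columns were matched to groups by name, and replicate numbers within a group were not tied to sample records. CPM is a count divided by its library's total, times 1000000. A gene with 0 in both collections of a bud type has no ratio and was not taken, and 3 genes are not reported here. Tests used edgeR 4.0.16 (TMM, filterByExpr, quasi-likelihood F-test, Benjamini-Hochberg over all genes tested) in R 4.3.3, on 9 libraries for year A and 6 for 200CU and 475CU; a call needs an adjusted p under 0.05 and a fold over 1.4. Fitted changes with SE for the opposite movement come from 1 fit of the 10 libraries that chose the genes, without tests. Each SE is the absolute log2 change divided by the square root of the F statistic. DESeq2 1.42.0 was an alternative. The fits were tried on simulated counts with a spread set in advance. For year A they recovered 2.99% of 1.5-fold, 50.7% of 2-fold and 100% of 4-fold changes. For 200CU and 475CU they recovered 5.97%, 43.3% and 98.5%. These rates hold only for that spread and for few changes, 67, 67 and 66 among 20807 genes for year A. In the libraries of year A, 3249 of 20950 genes were called higher and 4370 lower. Recovery at the spread and number of changes of the real libraries was not tested. A gene that was not called may still have changed. Genes named are the 10 largest of each direction with libraries apart, those named by the study, group members, edges and the 5 largest calls; the wider division and BURP lists were added later. Genes and lists were chosen with earlier results of these data known. Peach identifiers matched 0 entries of the reference table, so no sequences or coordinates are given. Intervals of counts cover counting error only.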

Additional observations from a re-analysis of the deposited data

Results flagged for a closer look

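PRUPE_I004700 and PRUPE_I004900, on unplaced scaffolds, could not be judged by the rule because both collections of vegetative buds were at 0, yet they carried reads in both libraries of flower buds at 930CU. PRUPE_I004900 had a mean of 55.0 CPM there, from 3862 and 2416 counts, and 0 counts in the other 23 libraries. PRUPE_I004700 had a mean of 19.1 CPM, from 1310 and 866 counts, and 2 counts in 1 of the other 23 libraries. A count of 0 allows up to 0.0668 CPM in the shallower flower library of Pre0CU. Neither gene has an annotation.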

How the results depend on the processing

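The number of genes depends on the thresholds. With a fold of 1.4 the rule took 44 genes higher in vegetative buds, with a fold of 2 it took 0 and, of the larger set, 82, and with a minimum of 10 CPM it took 14. CPM on TMM library sizes gave 28 and 251 genes, of which 17 and 239 were the same. Without 1 library, 19 to 28 and 259 to 300 genes were found.

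In year A, 178 to 196 of the larger set fell and 3 to 6 rose without 1 library, and 5 to 6 of the smaller set fell and 3 to 5 rose. Between 200CU and 475CU, 15 to 23 of the larger set fell and 2 to 18 rose, and 1 to 2 of the smaller set fell and 8 to 13 rose, the fewest (8) without the second library of 200CU. Over that step, DESeq2 gave 14 rises in the larger set and 2 falls in the smaller. At a fold over 1.5 and an adjusted p under 0.01, 12 fell and 2 rose in the larger set, and 8 rose in the smaller. Without the 475CU libraries with LFY over 10 CPM, 12 fell and 1 rose in the larger set, and 1 rose and 0 fell in the smaller. Without every library of the step with LFY over 10 CPM, chosen after seeing the data, 57 fell and 2 rose in the larger set, and 2 fell in the smaller; PRUPE_1G139900, not called otherwise, then fell, with a log2 change of −1.01 (adjusted p = 0.033, edgeR). With replicate numbers as a block, 197 genes of the larger set fell in year A, and between 200CU and 475CU 2 of the smaller set fell; correlations of same-numbered libraries were −0.02 to 0.09 and did not show pairing. The cause of these changes was not tested. Apart from PRUPE_1G139900, no named gene changed its sign with a call under any alternative run.

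Flower buds have 2 libraries a collection and no second season here, so the flower side has no independent test.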
